A study of Mus musculus with 9 samples.

Results

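Surface proteins carry primordial germ cells (PGCs) through their migration and are also the handles by which these cells are sorted. 9 such genes were followed here, taken as every row of the deposited tables whose symbol was Itgb3, Itga6, Kit, Pecam1, Alpl, Fut9, Cd9, Cd24a or Cxcr4. They are 9 of the 56691 genes in the tables, and all 9 passed the filter on low counts that left 16903 genes for testing.

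The libraries came from mouse BVSC PSCs, a stem cell line in which Blimp1-mVenus (BV) and Stella-CFP report on germ cell genes. Embryoid bodies grown from these PSCs carried a p20 vector that was either empty (Ctrl) or encoded NRF1 (NRF1 OE), and all of them, Ctrl included, received doxycycline at 1.5 μg/mL between day 2 and day 5. Dissociated cells were sorted by the reporter into BV+ cells, labelled as PGC-like cells (PGCLCs), and BV− cells, labelled as somatic. This gave 4 groups, namely BV+ NRF1 OE (n = 2), BV+ Ctrl (n = 2), BV− NRF1 OE (n = 3) and BV− Ctrl (n = 2). The methods of the study call the replicates biological, but neither they nor the labels say which were separate cultures, so p-values measure the spread between these libraries, whatever its source.

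Mouse PGCs derive from the proximal posterior epiblast and travel through the hindgut to the genital ridges. Integrins, dimers of an alpha and a beta chain, let them grip the matrix they cross, and ITGB3 (CD61) together with the SSEA1 glycan is a standard pair of antigens for sorting mouse PGCLCs. KIT, a receptor tyrosine kinase, and CXCR4, a chemokine receptor, keep migrating PGCs alive and guide them along sources of their ligands KITL and CXCL12. Tissue-nonspecific alkaline phosphatase (Alpl) and the SSEA1 glycan, whose last sugar FUT9 adds, are classical PGC stains shared with pluripotent cells.

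Because NRF1 is the factor that the labels name, the promoters of the markers were searched for its recognition sequence, by 2 palindromes of 6 letters that this sequence holds, TGCGCA and GCATGC, which can overlap by the letters GCA. 4 of the 9 markers (Kit, Alpl, Cd9 and Cxcr4) had an entry in the RefSeq promoter table (GRCm38.p6), in windows of 300 bases from 250 before the start to 50 after it. Itgb3, Itga6, Pecam1, Fut9 and Cd24a had none. Cxcr4 held TGCGCA 1 time, beginning 60 bases before the start, and GCATGC 1 time, beginning 57 bases before it, so that the matches overlap. Cd9 held TGCGCA 1 time, 34 bases before the start, and no GCATGC. The 2 windows each of Kit and Alpl held neither motif on either strand. Of all 32851 windows, 7.76% held TGCGCA and 7.93% held GCATGC. The 250 bases before the start are shown for the 2 genes with a match, 5′ to 3′ on the strand of the gene, with the matched letters in capitals.
Cxcr4, minus strand, chr1:128592300-128592549: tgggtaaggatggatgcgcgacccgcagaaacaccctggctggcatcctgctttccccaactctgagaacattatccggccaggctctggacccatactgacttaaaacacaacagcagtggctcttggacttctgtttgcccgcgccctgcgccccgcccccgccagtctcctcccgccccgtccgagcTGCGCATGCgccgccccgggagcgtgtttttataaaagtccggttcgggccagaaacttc
Cd9, minus strand, chr6:125494761-125495010: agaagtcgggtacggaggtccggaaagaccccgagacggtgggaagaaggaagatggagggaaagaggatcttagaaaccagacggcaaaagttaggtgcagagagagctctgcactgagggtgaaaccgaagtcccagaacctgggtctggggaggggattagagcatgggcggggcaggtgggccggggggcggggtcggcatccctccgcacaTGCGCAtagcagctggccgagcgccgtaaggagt

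Total counts ranged from 13702162 to 19625460 per library. Counts were scaled to library size (CPM) with TMM factors of 0.969 to 1.026. In each library, the deviation of the genes from the mean of all libraries followed the GC content of the transcripts to a different degree (Spearman's rho across 16662 genes, which are not independent replicates). It lay between −0.505 and −0.398 in the 4 Ctrl libraries, at 0.282 and 0.0237 in BV+ NRF1 OE, and at 0.0294, 0.621 and 0.468 in BV− NRF1 OE. Replicate 2 of BV− NRF1 OE had the fewest counts and the highest rho, and correlated least with its own group (Spearman's rho of 0.983 and 0.987 across genes, against 0.991 for the other pair). Where leaving out this library changed a call of a marker, the value without it is given beside the result.

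The labels were compared with 2 genes. Nrf1 was 91.1 and 90.4 CPM in BV+ Ctrl and 95.7 and 99.4 CPM in BV+ NRF1 OE (log2 fold change 0.10, adjusted p = 0.489 by edgeR's quasi-likelihood test). The BV− libraries had 99.1 and 105 CPM with Ctrl and 119, 122 and 126 CPM with NRF1 OE (0.26 on the log2 scale, adjusted p = 0.0718 in edgeR). The ranges did not overlap in either population, but the increase passed the test in neither. Between the populations, Nrf1 was lower in BV+ than in BV− cells with NRF1 OE (log2 fold change −0.33, adjusted p = 0.0431 in edgeR). The same comparison at Ctrl gave −0.17 (adjusted p = 0.819 in edgeR). Prdm1, which encodes BLIMP1 and whose reporter defined the sort, lay between 42.4 and 62.8 CPM in all libraries, with a log2 fold change between BV+ and BV− cells of 0.05 at Ctrl and 0.00 at NRF1 OE (adjusted p = 1.00 and 0.998 in edgeR). The libraries labelled BV+ and BV− thus overlapped in Prdm1 under both conditions, and all directions below, between populations and with NRF1 OE, are given by label. Summed over 8 germ cell markers (Prdm1, Prdm14, Tfap2c, Dppa3, Nanos3, Dnd1, Ddx4 and Dazl), the level was 279 to 310 CPM in BV+ libraries and 330 to 424 CPM in BV− libraries. Summed over 9 genes of naive pluripotency, among them Nanog and Zfp42, it was 1225 to 1425 CPM in BV+ NRF1 OE. It was 1518 to 1574 CPM in BV+ Ctrl and 1572 to 1632 CPM in BV− libraries. With NRF1 OE in BV+ cells, 2 of the 9 (22.2%) were lower and 0 higher, against 1.78% and 6.24% of all genes tested. In BV− cells 3 (33.3%) were lower and 2 (22.2%) higher, against 6.98% and 10.2%. Kit, Pecam1 and Alpl, described below, had their lowest value in replicate 1 of BV+ NRF1 OE, as did the naive pluripotency sum. In replicate 2 of that group, Kit (136 CPM) was below both BV+ Ctrl libraries, but Pecam1 (145 CPM) and Alpl (176 CPM) were not. The part of the lower naive pluripotency sum in these markers was not tested. The germ cell sum was lower in every library labelled BV+ than in every library labelled BV−, against the name PGCLC, so the populations are called BV+ and BV− cells here. The sum itself was not tested. Of its 8 genes, 0 differed between the populations at Ctrl (adjusted p under 0.05 in edgeR), where 1.12% of all genes did. With NRF1 OE, 3 (37.5%) were lower and 0 higher in BV+ cells, against 3.85% and 9.90% of all genes. Compared with Ctrl, NRF1 OE raised 4 of the 8 (50%) and lowered 0 in BV− cells, against 10.2% and 6.98% of all genes. It raised 1 (12.5%) and lowered 0 in BV+ cells, against 6.24% and 1.78%.

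Per transcript length, measured as the FPKM that the authors deposited, the markers covered a wide span of levels. Cd9, a tetraspanin that organises integrins in the membrane, was highest, at 77.0 to 93.8 FPKM over the 9 libraries. Alpl (35.6 to 52.2 FPKM) and Cd24a (26.4 to 60.2 FPKM), a small sialylated adhesion protein, came next and overlapped. Pecam1 (16.0 to 26.7 FPKM), Itga6 (13.0 to 27.6 FPKM) and Kit (13.1 to 19.9 FPKM) formed an overlapping middle group. Itgb3 was 2.52 to 9.05 FPKM, above Cxcr4 (1.34 to 2.22 FPKM) in every library. Fut9 was at 0.960 to 2.58 FPKM, a range that overlapped both Cxcr4 and the low end of Itgb3.

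**Figure D1:**
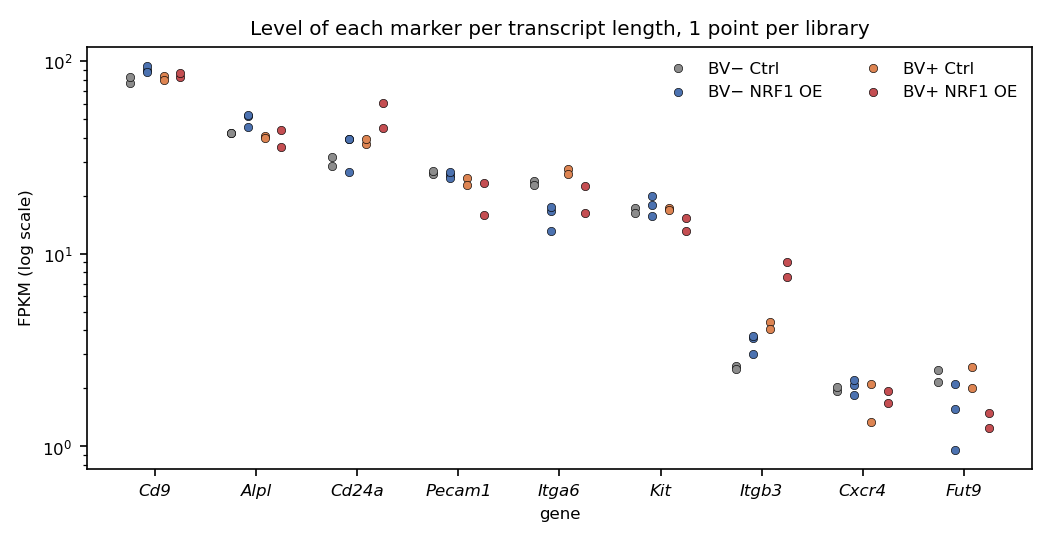
FPKM of each marker on a log axis, 1 point per library, coloured by group, with the genes ordered by their mean. Cd9 lies above 76 FPKM in every library, and Itgb3 is the gene whose groups are spread furthest, from 2.52 FPKM in BV− Ctrl to 9.05 FPKM in BV+ NRF1 OE.

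The first question was whether NRF1 OE changed the markers in BV+ cells. 1 of the 9, Itgb3, passed an adjusted p of 0.05 in edgeR, or 11.1%, where 8.02% of all genes tested did (6.24% upward and 1.78% downward). At an unadjusted p under 0.05 there were 4 (Itgb3, Itga6, Fut9 and Cd24a), beside 32.5% of all genes. Without replicate 2 of BV− NRF1 OE, which shares in the estimate of the spread, these 4 passed the adjusted threshold in a fit where 29.4% of all genes did. By the threshold of the study, which asks for an unadjusted p under 0.05 and a log2 fold change beyond 0.58 in either direction, there were 2, Itgb3 higher and Fut9 lower, or 22.2% against 17.0% of all genes. The libraries of the 2 groups did not overlap in 3 markers that were higher with NRF1 OE and in 3 that were lower, where 38.1% and 32.0% of all genes did so. The median log2 fold change of the 9 markers was 0.01, beside 0.04 for all genes tested.

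In BV− cells, 2 of the 9 markers changed with NRF1 OE, Itgb3 upward and Itga6 downward, or 22.2%, where 17.2% of all genes tested passed the same threshold (10.2% upward and 6.98% downward). At an unadjusted p under 0.05 there were 4 (Itgb3, Itga6, Alpl and Cd9), beside 39.1% of all genes. None passed the threshold of the study, since all 9 log2 fold changes were below 0.58 in size, and 16.0% of all genes did. 3 markers were higher and 2 lower without overlap, against 29.4% and 27.6% of all genes. The median log2 fold change was 0.13, beside 0.01 for all genes. Without replicate 2 of BV− NRF1 OE, Itga6 alone passed, beside 14.6% of all genes.

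The second question was how the sorted populations differed. At Ctrl, 0 of 9 markers passed the adjusted threshold in edgeR, where 1.12% of all genes did (1.10% higher and 0.0237% lower in BV+ cells), while Itgb3 had an unadjusted p under 0.05, as did 7.77% of all genes, and was called by DESeq2. Itgb3 also passed the threshold of the study, as did 5.74% of all genes. With NRF1 OE, 1 of 9, Itgb3, passed, or 11.1% against 13.8% of all genes (9.90% higher and 3.85% lower), 5 had an unadjusted p under 0.05 (Itgb3, Kit, Pecam1, Alpl and Cd24a) beside 28.2% of all genes, and only Itgb3 passed the threshold of the study, beside 14.7% of all genes. Without replicate 2 of BV− NRF1 OE, Itgb3 passed at Ctrl, as did 2.87% of all genes, and Itgb3, Pecam1 and Cd24a passed with NRF1 OE, as did 14.8% of all genes. At Ctrl, 3 markers were higher and 2 lower in BV+ cells without overlap (22.6% and 25.4% of all genes), and with NRF1 OE 2 were higher and 4 lower (20.3% and 19.5%). The comparisons share libraries and are not independent of each other.

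**Figure D2:**
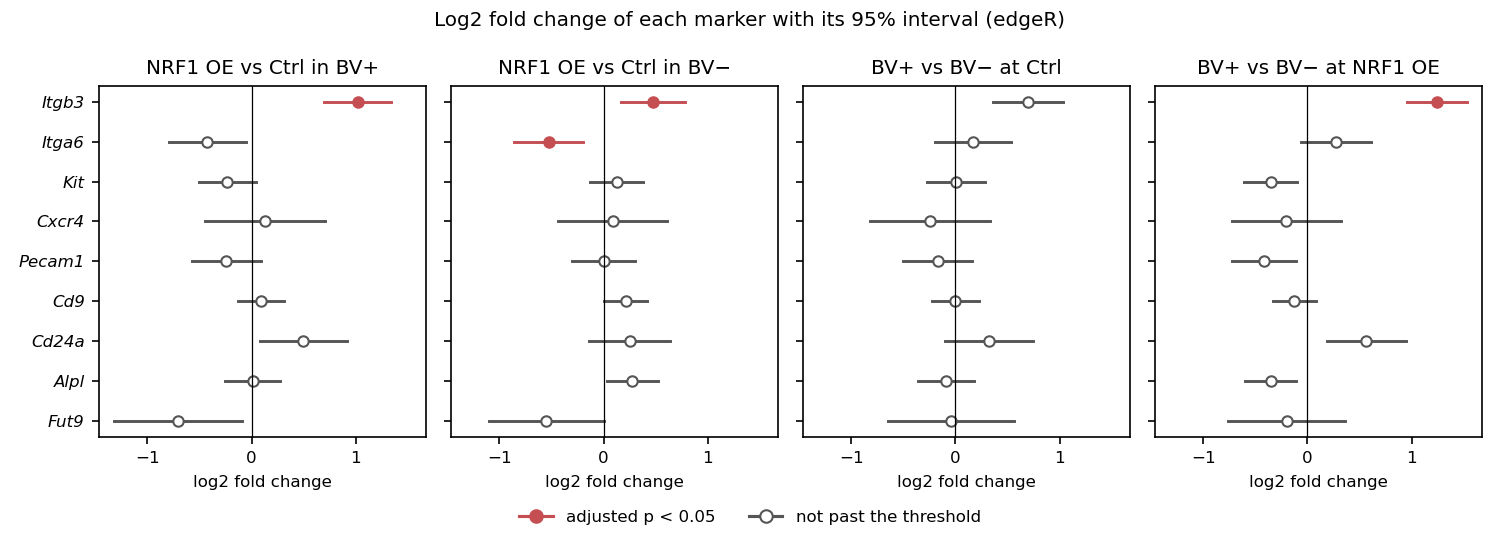
Log2 fold change of each marker (points) with its 95% interval from edgeR (lines) in 4 comparisons, with filled red points where the adjusted p was under 0.05. Itgb3 lies right of 0 in all 4 comparisons, up to 1.24 for BV+ against BV− cells with NRF1 OE, and Itga6 is the only other marker with a filled point, at −0.53 in BV− cells.

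Whether NRF1 OE acted differently in the 2 populations was tested as the difference of the NRF1 OE effects. None of the 9 markers passed an adjusted p of 0.05 in edgeR or DESeq2, and 0% of all genes passed in edgeR. None passed the threshold of the study either, beside 4.48% of all genes. Itgb3 was the only marker with an unadjusted p under 0.05, where 5.51% of all genes had one, with an effect larger by 0.55 in BV+ cells (95% interval 0.10 to 0.99, adjusted p = 0.748 in edgeR). For Kit the difference was −0.36 (−0.73 to 0.02), and for the other 7 it lay between −0.26 and 0.25.

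Itgb3 (ENSMUSG00000020689) encodes the beta 3 chain, which pairs with ITGAV or ITGA2B. It was lowest in BV− Ctrl, at 15.2 and 14.8 CPM, and rose to 22.0, 22.2 and 18.4 CPM in BV− NRF1 OE. It was 25.4 and 23.3 CPM in BV+ Ctrl and 54.0 and 44.7 CPM in BV+ NRF1 OE. No library of any group overlapped a library of another, so that the 4 groups stood in the order BV− Ctrl, BV− NRF1 OE, BV+ Ctrl and BV+ NRF1 OE.

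In BV+ cells, Itgb3 rose 2.03-fold with NRF1 OE, a log2 fold change of 1.02 (SE 0.147, 95% interval 0.70 to 1.34, adjusted p = 0.0124 in edgeR). In BV− cells it rose 1.39-fold, or 0.47 on the log2 scale (0.16 to 0.78, adjusted p = 0.0446 in edgeR). BV+ cells were 1.62-fold above BV− cells at Ctrl (0.70, interval 0.36 to 1.03, adjusted p = 0.0577 in edgeR and 0.0156 in DESeq2), and without replicate 2 or 3 of BV− NRF1 OE this passed in edgeR (0.73 in both fits, adjusted p = 0.00514 and 0.0481). With NRF1 OE they were 2.37-fold above (1.24, interval 0.95 to 1.53, adjusted p = 9.12e-05 in edgeR). The last of these passed under every alternative run, with log2 fold changes of 0.94 to 1.37. The rise in BV+ cells passed in 13 of 17 alternatives, but not with the replicate number as a block. It did not pass without replicate 1 of BV+ NRF1 OE (0.88, adjusted p = 0.147), or without BV+ Ctrl replicate 1 (1.08, 0.123) or 2 (0.96, 0.169), fits in which 0 genes of all tested passed. The rise in BV− cells was close to the threshold and passed in 6 of 17 alternatives, with log2 fold changes of 0.40 to 0.56 and adjusted p of 0.0302 to 0.311 over all 17. Among those that ended the call were the GC and length offsets (adjusted p = 0.0653), the fit without replicate 2 (0.0701) or 3 (0.0620) of BV− NRF1 OE, and the fits without either Ctrl library of either population (0.0775 to 0.311).

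**Figure D3:**
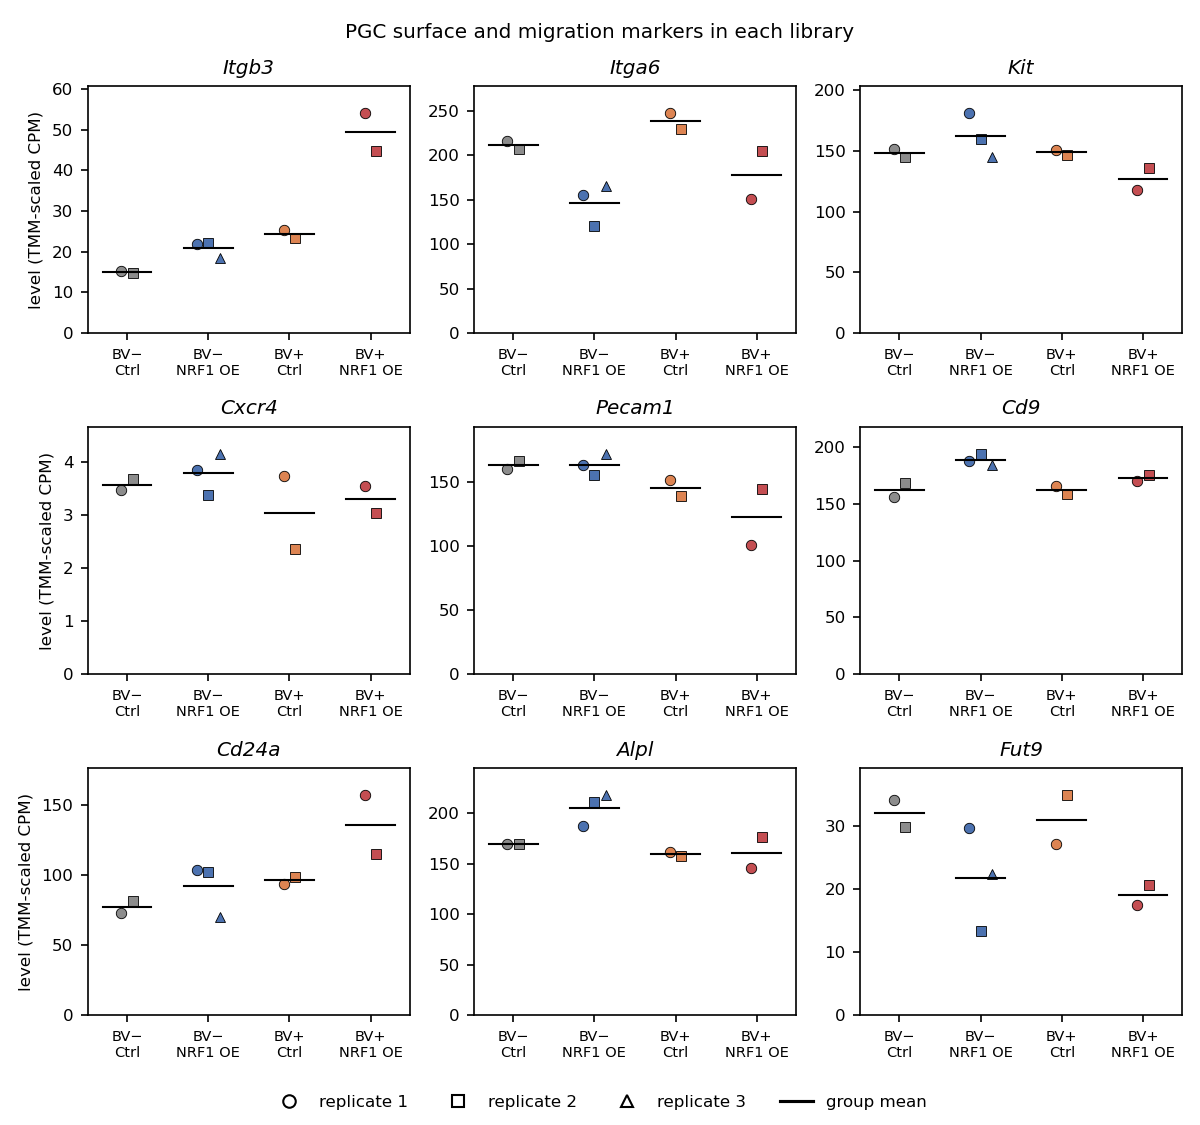
Level of each marker in each library, in TMM-scaled CPM on axes that start at 0, with symbols for the replicate numbers and a line at the group mean. In the Itgb3 panel the 2 BV+ NRF1 OE libraries, at 54.0 and 44.7 CPM, stand above all others, and in the Itga6 panel all 5 NRF1 OE libraries lie below all 4 Ctrl libraries.

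Neither partner of ITGB3 passed the test with NRF1 OE. Itgav, the alpha chain of the vitronectin receptor, was 81.8 and 79.7 CPM in BV+ Ctrl and 67.6 and 86.3 CPM in BV+ NRF1 OE (log2 fold change −0.07, adjusted p = 0.834 in edgeR). BV− cells had 68.9 and 57.5 CPM with Ctrl and 54.2, 32.7 and 49.7 CPM with NRF1 OE (−0.47, adjusted p = 0.0951). With NRF1 OE it was higher in BV+ cells by 0.75 on the log2 scale (adjusted p = 0.0222). Itga2b, the platelet alpha chain, had only 16 to 61 raw counts and log2 fold changes of 0.46 in BV+ cells and 0.25 in BV− cells, neither past the test (adjusted p = 0.467 and 0.694 in edgeR).

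Itga6 (ENSMUSG00000027111) encodes the alpha 6 chain, a laminin receptor that pairs with ITGB1 or ITGB4. It was 247 and 230 CPM in BV+ Ctrl against 151 and 205 CPM in BV+ NRF1 OE, and 216 and 207 CPM in BV− Ctrl against 155, 120 and 165 CPM in BV− NRF1 OE. All 5 NRF1 OE libraries were below all 4 Ctrl libraries. The fall in BV− cells passed the test (log2 fold change −0.53, interval −0.86 to −0.20, adjusted p = 0.0411 in edgeR). In BV+ cells the log2 fold change was −0.42 (−0.79 to −0.06, adjusted p = 0.114 in edgeR), and ranged from −0.66 to −0.22 with each library left out in turn. Without replicate 2 of BV− NRF1 OE it was −0.44 with an adjusted p of 0.0132. Without that library, the log2 fold change in BV− cells was −0.43 (adjusted p = 0.0297). Leaving out either Ctrl library of either population, or replicate 3 of BV− NRF1 OE, ended the call in BV− cells (adjusted p of 0.0595 to 0.311). BV+ and BV− cells differed by 0.17 at Ctrl and 0.28 at NRF1 OE, neither past the test.

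Itgb1, the common partner of many alpha chains, was 398 and 373 CPM in BV+ Ctrl and 415 and 401 CPM in BV+ NRF1 OE. The BV− libraries had 371 and 349 CPM with Ctrl and 334, 235 and 283 CPM with NRF1 OE. Neither difference passed the test (0.08 and −0.34 on the log2 scale, adjusted p = 0.706 and 0.0785 in edgeR), whereas with NRF1 OE it was higher in BV+ cells by 0.52 (adjusted p = 0.0207). Itgb4 was low, at 2.65 to 3.87 CPM, and did not pass in any comparison.

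Counts of the gene lists from here on stand beside these shares of all genes tested, which were 6.24% higher and 1.78% lower with NRF1 OE in BV+ cells, 10.2% and 6.98% in BV− cells, 1.10% and 0.0237% for BV+ against BV− cells at Ctrl, and 9.90% and 3.85% with NRF1 OE. The lists are small, and no list was tested against the other genes. Counts of gene lists, here and above, come from the fit without offsets for GC content and length. They were not checked against the GC trend of the libraries. Every call with NRF1 OE in BV+ cells, of list genes too, ended when replicate 1 of BV+ NRF1 OE or either BV+ Ctrl library was left out, since 0 genes then passed. In BV− cells 0 or 1 genes passed without any 1 of the 4 Ctrl libraries, and 35 without replicate 3 of BV− NRF1 OE. Of the 19 other integrin chains tested, 3 rose (15.8%) and 0 fell with NRF1 OE in BV+ cells. These were Itga3 (log2 fold change 1.06, adjusted p = 0.0323 in edgeR), a laminin receptor, Itga11 (3.17, 0.0379), a collagen receptor, and Itgb5 (0.65, 0.0388), another partner of ITGAV. In BV− cells 0 rose and 1, Itga4, fell (−1.52, adjusted p = 0.0460). At Ctrl none differed between BV+ and BV− cells, and with NRF1 OE 7 were higher (36.8%) and 0 lower in BV+ cells, led by Itgb8 (3.30), Itga3 (1.39) and Itga7 (1.71). The list's median log2 fold change with NRF1 OE was 0.16 in BV+ cells and −0.18 in BV− cells, beside 0.04 and 0.01 for all genes.

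Among 14 integrin ligands of the matrix, 3 rose (21.4%) and 0 fell with NRF1 OE in BV+ cells. They were Thbs1 (1.74, adjusted p = 0.0146 in edgeR), Lama4 (1.06, 0.0296), a laminin chain of vessel walls, and Tnc (1.15, 0.0326). In BV− cells Lama5 rose (0.43, 0.0490) and Nid1 fell (−0.43, 0.0455). Tnc and Thbs1 were already higher in BV+ cells at Ctrl (4.53 and 1.97), the 2 of 14 that differed there. With NRF1 OE 6 were higher (42.9%) and 0 lower, among them Tnc (4.95), Lama4 (2.61) and Thbs1 (2.79). The median with NRF1 OE was 0.37 in BV+ cells and −0.06 in BV− cells.

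Pecam1 (ENSMUSG00000020717), an adhesion molecule shared by PGCs, pluripotent cells and endothelium, was 151 and 139 CPM in BV+ Ctrl and 100.4 and 145 CPM in BV+ NRF1 OE. BV− cells had 160 and 166 CPM with Ctrl and 163, 155 and 171 CPM with NRF1 OE. The groups overlapped in both populations, with log2 fold changes of −0.24 (adjusted p = 0.277 in edgeR) and 0.00 (0.993). The BV+ value differed between the NRF1 OE libraries, since the log2 fold change was 0.00 without replicate 1 (adjusted p = 1.00) and −0.53 without replicate 2 (adjusted p = 0.0374), which passed. With NRF1 OE, BV+ cells had less Pecam1 than BV− cells by 0.41 on the log2 scale (95% interval −0.72 to −0.11), without overlap but not past the threshold (adjusted p = 0.0752 in edgeR). It passed without replicate 2 of BV− NRF1 OE (−0.41, adjusted p = 0.0435 in edgeR) and with the GC and length offsets (−0.46, 0.0117). With each library left out in turn, this log2 fold change ranged from −0.70, without replicate 2 of BV+ NRF1 OE, to −0.17.

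Markers of other cells were summed in the same libraries. The 10 endothelial markers (Kdr, Cdh5, Tek, Tie1, Emcn, Esam, Cldn5, Eng, Flt1 and Sox18) came to 87.0 to 102 CPM in BV+ NRF1 OE, against 53.4 to 54.7 CPM in BV+ Ctrl, 45.7 to 52.7 CPM in BV− NRF1 OE and 45.3 CPM in both BV− Ctrl libraries. 5 of the 10 rose and 0 fell with NRF1 OE in BV+ cells. Kdr had a mean of 21.3 CPM in BV+ NRF1 OE, 7.55 in BV+ Ctrl, 1.60 in BV− NRF1 OE and 2.23 in BV− Ctrl, and Cdh5 had 6.37, 2.12, 0.353 and 0.483. 7 of the 10 had their highest mean in BV+ NRF1 OE, whereas Tek was highest in BV− Ctrl (17.6 CPM), and Cldn5 (3.52 CPM) and Eng (24.4 CPM) in BV− NRF1 OE. The 9 blood markers with a count summed to 11.8 to 14.2 CPM in BV+ NRF1 OE, 9.63 to 9.97 CPM in BV+ Ctrl and 5.48 to 7.88 CPM in BV− libraries. Ptprc, which defines leukocytes, had group means of at most 0.0328 CPM. The part of these cells in the Itgb3 values was not tested. In bulk libraries, fewer cells of a type and less RNA per cell cannot be told apart.

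BV+ NRF1 OE was not at the top of the remaining marker sums. Markers of mesoderm came to 9.21 to 18.5 CPM over all libraries, with BV+ NRF1 OE at 12.8 to 15.8 CPM. Within this sum, Hand1 (3.04 CPM), T, Mixl1 and Foxf1 had their highest mean in BV+ NRF1 OE. Eomes (6.68 CPM) and Pdgfra (7.86 CPM) had theirs in BV− Ctrl, Tbx6 in BV+ Ctrl and Mesp1 in BV− NRF1 OE. Extraembryonic endoderm gave 45.9 to 53.5 CPM in BV+ NRF1 OE and 45.8 to 92.6 CPM in the other groups. Dab2 alone had group means of 31.7 to 51.9 CPM. The definitive endoderm sum is not given, since nearly all of it was Trh (group means of 359 to 445 CPM), while Sox17, Foxa2, Gsc, Cer1 and Foxa1 each had group means of at most 1.46 CPM.

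Kit (ENSMUSG00000005672) was 151 and 147 CPM in BV+ Ctrl and 118 and 136 CPM in BV+ NRF1 OE. It was 152 and 145 CPM in BV− Ctrl and 181, 160 and 145 CPM in BV− NRF1 OE. The BV+ groups did not overlap, but the log2 fold change of −0.23 (95% interval −0.51 to 0.05) did not pass the test (adjusted p = 0.218 in edgeR), nor did that of 0.13 (−0.13 to 0.38) in BV− cells. At Ctrl the 2 populations had nearly the same level, with a log2 fold change of 0.00 (−0.27 to 0.28). With NRF1 OE the BV+ level was lower by 0.35 (−0.61 to −0.10, adjusted p = 0.0675), and with offsets for GC content and length by 0.56 (adjusted p = 0.00107).

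Kitl, the ligand of KIT, was lower than its receptor per transcript length, at 0.370 to 3.22 FPKM. It was 9.24 and 10.9 CPM in BV+ Ctrl and 19.3 and 17.1 CPM in BV+ NRF1 OE, a rise of 0.85 on the log2 scale (SE 0.214, adjusted p = 0.0390 in edgeR) that, like that of every gene, did not pass in the 3 fits with 0 genes called. Its BV− levels were 5.80 and 4.59 CPM with Ctrl and 3.91, 2.21 and 3.26 CPM with NRF1 OE (−0.71, adjusted p = 0.0527). The groups did not overlap in either population, and the sign of the difference was opposite. With NRF1 OE, BV+ cells held more Kitl by 2.52 (adjusted p = 1.66e-05), while the difference of the NRF1 OE effects, 1.57, did not pass (adjusted p = 0.488 in edgeR).

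Of 18 genes of KIT signalling tested, Kitl included, 3 rose (16.7%) and 0 fell with NRF1 OE in BV+ cells. The other two were the adaptors Gab2 (1.46, adjusted p = 0.0128 in edgeR) and Shc1 (0.68, 0.0321). In BV− cells 2 rose and 3 fell, among them Akt1 upward (0.58, 0.0356), and Pik3r1, a subunit of PI3 kinase, downward (−0.73). Gab2 was the only gene of the list that differed at Ctrl, where it was higher in BV+ cells by 2.01. With NRF1 OE 7 were higher in BV+ cells (38.9%) and 0 lower, led by Kitl, Gab2 (2.77) and the kinase Lyn (2.09). The median log2 fold change with NRF1 OE was 0.06 in BV+ cells and −0.30 in BV− cells.

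Cxcr4 (ENSMUSG00000045382) was near the lower end of what these libraries can compare, with 45 to 70 raw counts. It was 3.74 and 2.36 CPM in BV+ Ctrl, 3.55 and 3.05 CPM in BV+ NRF1 OE, 3.47 and 3.69 CPM in BV− Ctrl, and 3.85, 3.39 and 4.15 CPM in BV− NRF1 OE. The groups overlapped in all 4 comparisons. The log2 fold change with NRF1 OE was 0.13 in BV+ cells (95% interval −0.45 to 0.71) and 0.09 in BV− cells (−0.43 to 0.61). Both intervals hold 0, and changes in either direction within them remain possible. BV+ and BV− cells differed by −0.25 at Ctrl and −0.20 at NRF1 OE, with intervals that also hold 0.

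Its ligand and its scavenging receptor were likewise low. Cxcl12 was 4.26 and 3.46 CPM in BV+ Ctrl and 6.49 and 5.71 CPM in BV+ NRF1 OE, without overlap but not past the test (0.67, adjusted p = 0.0964 in edgeR). The BV− levels were 3.91 and 3.31 CPM with Ctrl and 5.24, 5.01 and 3.49 CPM with NRF1 OE. Ackr3, which binds CXCL12 and removes it, rose in BV+ cells from 1.44 and 0.892 CPM to 2.63 and 2.67 CPM (1.20, adjusted p = 0.0454), a call that ended in the same 3 fits. BV− cells had 0.882 and 0.748 CPM with Ctrl and 1.44, 1.84 and 1.66 CPM with NRF1 OE (1.01, adjusted p = 0.0538). These values rest on 14 to 51 raw counts of Ackr3 per library.

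Of 13 genes of CXCR4 signalling tested, 3 rose (23.1%) with NRF1 OE in BV+ cells and 1 fell (7.69%). Beside Ackr3, the G protein subunit Gnai2 (0.79, adjusted p = 0.0281 in edgeR) and the arrestin Arrb1 (0.97, 0.0418) rose, and Dpp4, a protease that cleaves CXCL12, fell (−1.31). In BV− cells 5 rose and 2 fell, with Grk6 (0.54) and Arrb2 (0.51) upward and Dpp4 (−1.31) downward. None differed at Ctrl between the populations. With NRF1 OE 4 were higher and 2 lower in BV+ cells, the 3 with the smallest adjusted p being Arrb1 (1.17), Grk3 (0.87) and Gnai3 (0.69). The list had a median with NRF1 OE of 0.17 in BV+ cells and 0.34 in BV− cells.

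**Figure D4:**
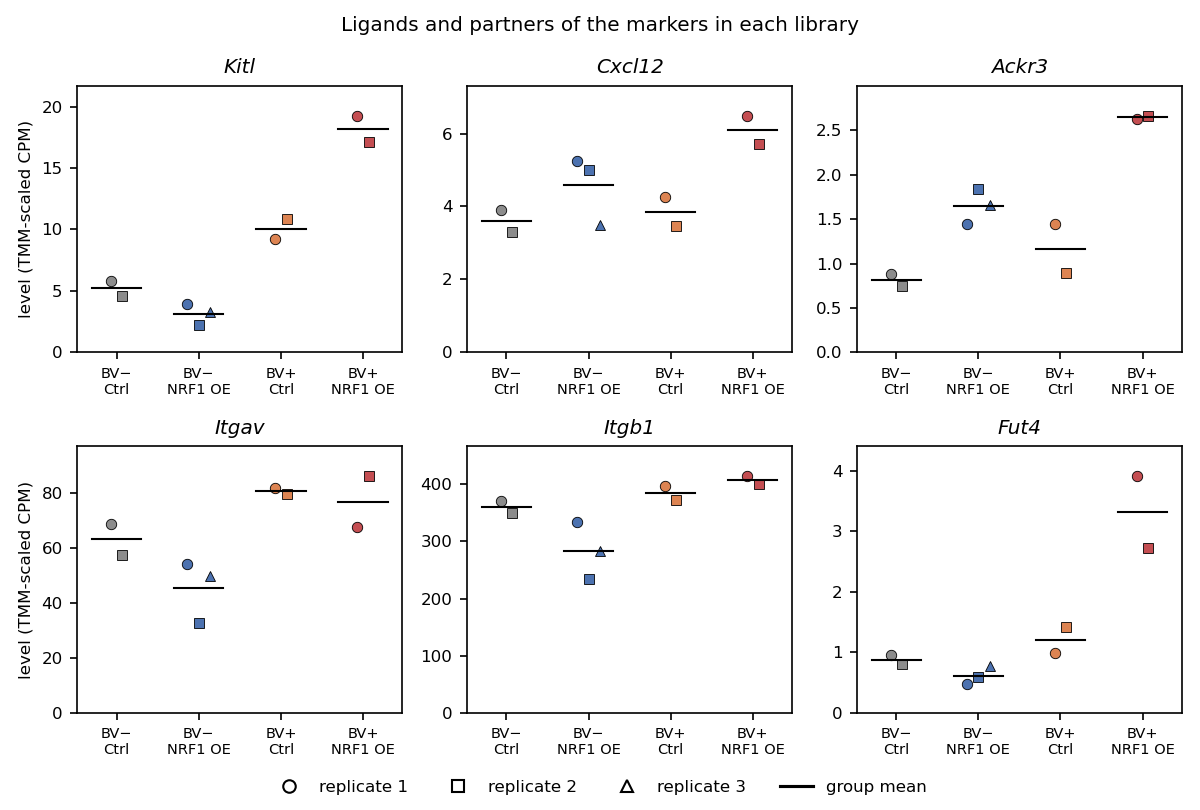
Level in each library, in TMM-scaled CPM on axes that start at 0, of the KIT ligand Kitl, the CXCR4 ligand Cxcl12, the receptor Ackr3, the integrin chains Itgav and Itgb1 and the fucosyltransferase Fut4, with lines at the group means. The 2 BV+ NRF1 OE libraries are the highest of all for Kitl (19.3 and 17.1 CPM) and Fut4 (3.92 and 2.72 CPM), but not for Itgav.

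Fut9 (ENSMUSG00000055373) was 27.1 and 34.8 CPM in BV+ Ctrl and 17.4 and 20.6 CPM in BV+ NRF1 OE. The BV− libraries had 34.1 and 29.8 CPM with Ctrl and 29.6, 13.3 and 22.3 CPM with NRF1 OE. Every NRF1 OE library lay below every Ctrl library of its population, with the lowest value in replicate 2 of BV− NRF1 OE. The log2 fold changes of −0.71 (95% interval −1.32 to −0.09) and −0.55 (−1.10 to 0.00) did not pass (adjusted p = 0.113 and 0.130 in edgeR). Without replicate 2 of BV− NRF1 OE they were −0.73 (adjusted p = 0.00361) and −0.33 (0.168). Without replicate 1 of BV− NRF1 OE the value in BV− cells was −0.83 and passed (adjusted p = 0.0211).

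The transcript of Fut9 is unusual in composition, with a GC content of 35.0%, at the percentile 0.432 of the genes tested, and a length of 12134 bases. With offsets for the trend of each library over GC content and length, its log2 fold change with NRF1 OE was −0.21 in BV+ cells (adjusted p = 0.240) and turned to 0.23 in BV− cells (0.204). With the same offsets, BV+ cells with NRF1 OE held less Fut9 than BV− cells by 0.62 (adjusted p = 0.00162), against 0.20 without them (0.661). No direction of Fut9 with NRF1 OE in BV− cells therefore held under both treatments of the GC trend.

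Fut4, the other alpha 1,3-fucosyltransferase that can complete SSEA1, was lower per transcript length (0.120 to 0.950 FPKM). In BV+ cells it rose from 0.983 and 1.42 CPM with Ctrl to 3.92 and 2.72 CPM with NRF1 OE (1.45, SE 0.336, adjusted p = 0.0330 in edgeR), a call that also ended in these 3 fits. In BV− cells it was 0.945 and 0.801 CPM with Ctrl and 0.482, 0.589 and 0.770 CPM with NRF1 OE (−0.49, adjusted p = 0.377). With NRF1 OE it was higher in BV+ cells by 2.42 (adjusted p = 0.000528). It was the 1 of 12 fucosylation genes tested (8.33%) that changed in BV+ cells. In BV− cells 2 rose and 0 fell, Gfus (0.65) and Fcsk (0.61), both enzymes of pathways that lead to GDP-fucose. At Ctrl none differed between the populations, and with NRF1 OE Fut4 and Fut10 (1.07) were higher in BV+ cells. The median of the 12 with NRF1 OE was 0.39 in BV+ cells and 0.09 in BV− cells.

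Alpl (ENSMUSG00000028766) was 161 and 158 CPM in BV+ Ctrl and 145 and 176 CPM in BV+ NRF1 OE, so the groups overlapped (log2 fold change 0.01, interval −0.26 to 0.28, adjusted p = 0.958 in edgeR). Its BV− levels were 169 and 170 CPM with Ctrl and 187, 210.4 and 217 CPM with NRF1 OE. These did not overlap, but 0.27 on the log2 scale (0.03 to 0.52) missed the threshold (adjusted p = 0.0958 in edgeR). Without replicate 1 of BV− NRF1 OE it was 0.34 and passed (adjusted p = 0.0341). With NRF1 OE, Alpl was lower in BV+ than in BV− cells by 0.35 (−0.60 to −0.11, adjusted p = 0.0606 in edgeR), without overlap. This passed without replicate 1 of BV− NRF1 OE (adjusted p = 0.0250). Dropping single libraries gave log2 fold changes for this comparison from −0.50 to −0.22. The transcript of Alpl has a GC content of 56.5%, at the percentile 84.7. With the offsets, the log2 fold changes were −0.30 (adjusted p = 0.126) and −0.08 (0.710), opposite in sign to those without them.

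A list of alkaline phosphatases and of the GPI anchor, which holds ALPL on the membrane, had 9 genes tested, none of them an alkaline phosphatase. They were Enpp1, Ank, Phospho1, Piga, Pigk, Pigs, Pigt, Pigu and Gpaa1. With NRF1 OE in BV+ cells, 1 of the 9 rose (11.1%), Gpaa1 (0.57, adjusted p = 0.0415 in edgeR), and 0 fell. In BV− cells 2 rose and 2 fell, among them Pigt upward (0.50) and Enpp1 (−1.11) and Piga (−0.64) downward. None differed between the populations at Ctrl or with NRF1 OE, and the median with NRF1 OE was 0.14 in BV+ cells and 0.38 in BV− cells. Alppl2, a germ line phosphatase, had 0 to 3 raw counts in a library and was not tested.

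Cd9 (ENSMUSG00000030342) had the smallest standard errors of the 9 markers. It was 166 and 159 CPM in BV+ Ctrl, 170.0 and 175 CPM in BV+ NRF1 OE, 156 and 169 CPM in BV− Ctrl and 187, 194 and 184 CPM in BV− NRF1 OE. NRF1 OE libraries lay above Ctrl libraries in both populations, by 0.09 (−0.13 to 0.31, adjusted p = 0.551 in edgeR) and 0.21 (0.01 to 0.42, 0.113) on the log2 scale. With the offsets the latter was 0.33 (adjusted p = 0.0398). A gene on the opposite strand, Gm26728, overlaps Cd9, and whether the counting used the strand is not stated.

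Of 22 other tetraspanins and their partners, 7 rose (31.8%) and 0 fell with NRF1 OE in BV+ cells, led by Tspan9 (0.86, adjusted p = 0.0131 in edgeR), Cd151 (0.72, 0.0250), which binds laminin-receptor integrins, and Tspan3 (0.52, 0.0330). In BV− cells 6 rose and 1 fell, with Cd63 (0.80), Cd151 (0.62) and Tspan4 (0.65) in front. The median log2 fold change of the list was 0.48 in BV+ cells and 0.30 in BV− cells, beside 0.04 and 0.01 for all genes. None differed at Ctrl between the populations, and with NRF1 OE 6 were higher and 0 lower in BV+ cells, among them Tspan18 (2.05), Tspan12 (2.41) and Tspan9 (0.55).

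Cd24a (ENSMUSG00000047139) was 94.0 and 98.9 CPM in BV+ Ctrl and 157 and 115 CPM in BV+ NRF1 OE, with no overlap. In BV− cells it was 73.2 and 81.4 CPM with Ctrl and 104, 102 and 70.4 CPM with NRF1 OE, with overlap. The log2 fold change in BV+ cells was 0.50 (95% interval 0.08 to 0.92, adjusted p = 0.107 in edgeR), and without replicate 1 of BV+ NRF1 OE it was 0.26 (adjusted p = 0.581). Without replicate 2 of BV− NRF1 OE it was 0.48 and passed (adjusted p = 0.0257). With offsets for GC content, which is 43.0% for Cd24a, it was 0.69 and passed (adjusted p = 0.0408). BV+ cells with NRF1 OE were above BV− cells by 0.57 (0.19 to 0.94, adjusted p = 0.0512), which DESeq2 called. Without replicate 2 of BV− NRF1 OE this was 0.68 (adjusted p = 0.00380). Dropping single libraries gave values of this difference from 0.33 to 0.77.

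**Figure D5:**
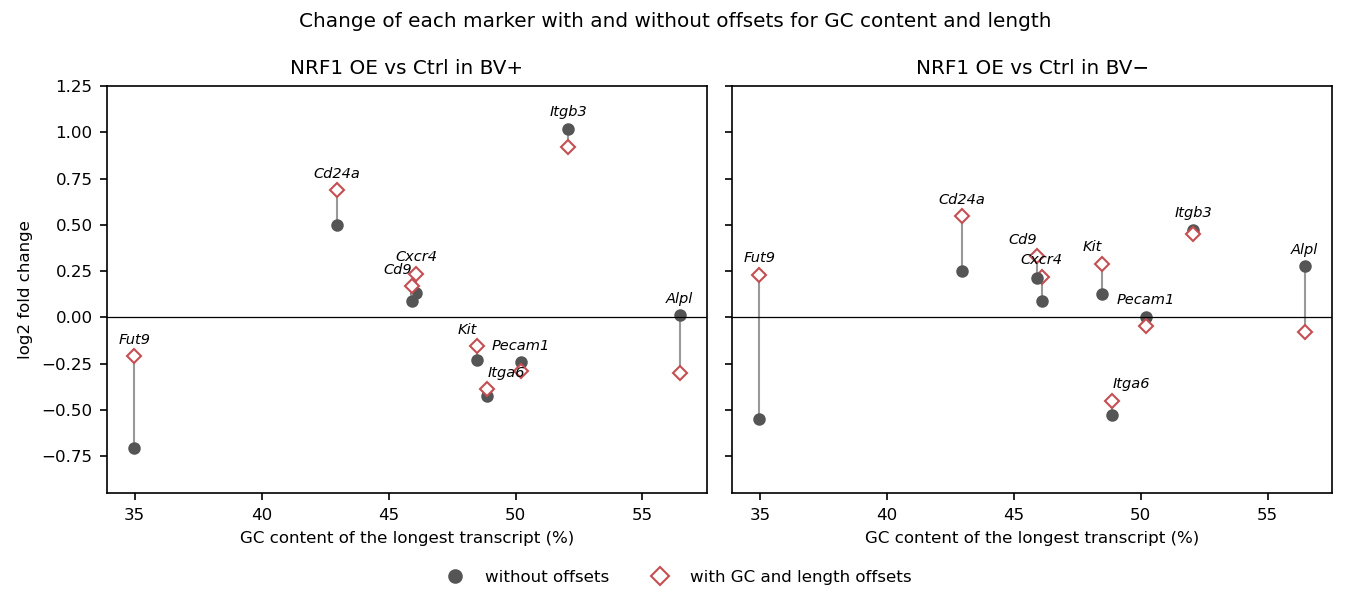
Log2 fold change with NRF1 OE of each marker, without (filled circles) and with (open diamonds) offsets for GC content and length, against the GC content of the longest transcript in percent. Fut9, at a GC content of 35.0%, moves up from −0.71 to −0.21 in BV+ and from −0.55 to 0.23 in BV− cells, and Alpl, at 56.5%, moves down, while Itgb3 in BV+ stays at 0.92 to 1.02.

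Of 18 other genes of PGC adhesion and migration, 0 rose and 0 fell with NRF1 OE in BV+ cells. In BV− cells 5 rose and 2 fell, led by Ifitm2 (0.48), which encodes a membrane protein of the fragilis family, Nanos3 (1.02) and Dnd1 (0.82), both RNA-binding proteins that protect PGCs (each adjusted p = 0.0317 in edgeR). Nanos3 and Dnd1 also belong to the germ cell markers summed above. None differed at Ctrl between the populations. With NRF1 OE 3 were higher and 4 lower in BV+ cells, with the gap junction gene Gja1 (0.57) and the WNT5A receptor Ror2 (1.03) higher and Nanos3 (−1.04) lower. The median with NRF1 OE was 0.02 in BV+ cells and −0.07 in BV− cells.

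Over the 9 libraries, the markers fell into patterns that are given as descriptions, since libraries of a group and a common GC trend are shared by all genes. By Pearson's r of log2 CPM, Itgb3 and Cd24a went together (0.90), and both ran against Pecam1 (−0.82 and −0.86). Itga6 and Fut9 went together (0.77), and Itga6 ran against Cd9 (−0.82). Among 10960 other genes with a mean of at least 5 CPM, the most similar to Itgb3 was Pip4p2 (r = 0.99), to Itga6 Zfp236 (0.99), to Fut9 Ptcd3 (0.99) and to Pecam1 Rrn3 (0.98). Cd9 was closest to Ism2 (0.98), Alpl to the pluripotency factor Klf2 (0.98), Cd24a to Esd (0.97) and Kit to Rsph1 (0.91). Cxcr4, whose counts were the lowest, was closest to Lyrm9 (0.92).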

How the data were processed

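Poly(A) RNA of sorted BV+ and BV− cells was sequenced in 9 libraries of 4 groups. Per the submitters' notes and the methods of the study, reads were trimmed with Cutadapt, mapped to GRCm39 with HISAT2 2.0.1 and counted with HTSeq 0.6.1. The deposited tables give a raw count for each of 56691 genes, not normalized, and the FPKM that the authors derived from these counts. FPKM were used here only to rank levels between genes. Genes were handled by Ensembl identifier, and the 9 markers were chosen by symbol.

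Counts were tested in R 4.3.3 with edgeR 4.0.16 (TMM, filterByExpr, quasi-likelihood F test, two-sided) in 1 fit of all 9 libraries and 4 groups. p-values were adjusted by Benjamini-Hochberg over 16903 genes and called under 0.05. The common biological coefficient of variation was 0.129. CPM are TMM-scaled, with a prior count of 2 on the log2 scale. The procedure was tested on simulated data. The study itself took genes at an unadjusted p under 0.05 and a log2 fold change beyond 0.58 in either direction.

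Alternatives were DESeq2 1.42.0, its size factors or library size alone in edgeR, no filter, only the groups compared, the replicate number as a block, spline offsets for GC content and length (5 degrees of freedom, GRCm38 transcripts, 98.6% of the genes tested), the block with these offsets, and each library left out in turn. Promoters came from RefSeq GRCm38.p6. Coordinates are given for the printed promoters only, in GRCm38.p6, and were not matched to the tables, which are on GRCm39. Named genes were the 9 markers, Nrf1, Prdm1, fixed ligands and partners, the 3 called genes of each list with the smallest adjusted p, and each marker's most similar gene. Members and lists were chosen with earlier results of these data known. Plots used matplotlib 3.10.9 in Python 3.11.15.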

Additional observations from a re-analysis of the deposited data

How the results depend on the processing

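The number of markers that passed an adjusted p of 0.05 moved with the processing, as did the number of all genes, given after it. With NRF1 OE in BV+ cells it was 1 (1355 genes), and became 4 without the filter on low counts (3440) or with only the groups compared (4371), 2 with GC and length offsets (2097) and 0 to 4 with a library left out (0 to 4957). In BV− cells it was 2 (2910), and became 3 without the filter (4392), 1 with library size alone (3141), 0 with only the groups compared (0) and 0 to 4 with a library left out (0 to 5847). With the offsets it was again 2 (1042), but Cd9 passed in place of Itgb3 (adjusted p = 0.0653). For BV+ against BV− cells at Ctrl it was 0 (190), and became 1 with DESeq2 (303), library size alone (214) or no filter (529), 2 with only the groups compared (890) and 0 to 1 with a library left out (31 to 484). For the same comparison with NRF1 OE it was 1 (2325), and became 2 with DESeq2 (2319), its size factors (2293) or library size alone (2253), 3 without the filter (2812), 4 with the offsets (4475) and 1 to 4 with a library left out (786 to 3182). Itgb3 passed in this last comparison in all 17 fits, in BV+ cells in 13 of 17 and in BV− cells in 6 of 17. Itga6 passed in BV− cells in 9 of 17. The cause of these changes was not tested.

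Shared replicate numbers do not pair these libraries by any label, and the differences between replicates 1 and 2 correlated between groups at r = −0.24 to 0.25. With the replicate block, 0 markers passed with NRF1 OE in BV+ cells (3 genes in all) and 0 in BV− cells (0 genes), 0 differed at Ctrl (121 genes), and 1 between the populations with NRF1 OE (1064). With the block and the offsets together these numbers were 2, 0, 0 and 3 (968, 2, 194 and 2746 genes).

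Some log2 fold changes, none of which passed the test as reported, changed sign. For Alpl with NRF1 OE in BV− cells the offsets gave −0.078 and the block with offsets −0.12. In BV+ cells Alpl was −0.027 with library size alone, −0.013 without the filter, −0.033 with only the groups compared, −0.30 with the offsets and −0.31 with the block as well. For Fut9 in BV− cells the offsets gave 0.23 and the block with offsets 0.29. For Pecam1 in BV− cells the values were −0.0057 with DESeq2 or its size factors, −0.037 with library size alone, −0.0018 without the filter, −0.0036 with only the groups compared, −0.032 with the block, −0.046 with the offsets and −0.072 with both. For Cd9 between the populations at Ctrl they were 0.025 with library size alone, 0.017 without the filter, 0.0082 with only the groups compared, 0.00037 with the block, 0.049 with the offsets and 0.051 with both. For Kit there they were −0.013 with DESeq2 or its size factors and −0.11 with the offsets, alone or with the block. The difference of the NRF1 OE effects for Cd24a was −0.025 with the block and offsets.

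With a library left out, sign changes occurred within −0.13 to 0.15 for Alpl in BV+ cells, −0.18 to 0.49 for Cxcr4 there, and −0.039 to 0.018 for Pecam1 in BV− cells. At Ctrl between the populations the ranges were −0.058 to 0.032 for Cd9, −0.60 to 0.063 for Cxcr4, −0.23 to 0.12 for Fut9 and −0.054 to 0.035 for Kit. With NRF1 OE the range was −0.41 to 0.082 for Fut9. For the difference of the effects they were −0.27 to 0.39 for Cxcr4, −0.40 to 0.12 for Fut9 and −0.13 to 0.31 for Itga6. With groups of 2 or 3 libraries, the spread of a marker rests on 5 residual degrees of freedom and on what edgeR learns from all genes, and a group reduced to 1 library is assumed to vary like the others. Depth limits Cxcr4, Ackr3, Fut4, Itga2b and Itgb4, which had at most 76 counts in a library.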
